A study of Mus musculus with 6 samples.

Results

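The genes described here are 10 genes known from tuft cells: Dclk1, Trpm5, Avil, Lrmp, Pou2f3, Il25, Gnat3, Gng13, Ptgs1 and Alox5ap. All probes whose gene symbol in the array's annotation was one of these were taken, which gave 14 probes of 9 genes among 46619 probes and 19406 named genes. Dclk1 had 5 probes, Trpm5 had 2 and 7 genes had 1 each. No probe carries the symbol Ptgs1, the prostaglandin synthase gene, so it was not analysed here. The arrays measured total RNA of medullary thymic epithelial cells (mTECs) sorted for high MHC class II, from C57BL/6 mice. There were 3 wild-type arrays and 3 arrays of mice lacking Aire, the transcriptional regulator by which mTECs express many genes of other tissues. The sources used here do not state age, the Aire allele, other sort gates or pooling of mice, so p-values measure only how these arrays vary, which may be technical.

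Tuft cells are chemosensory epithelial cells of the gut, the airways and other mucosae, and cells of this type also occur in the thymic medulla. They sense ligands through a cascade known from taste cells, in which receptors act on a G protein whose subunits include Gnat3 and Gng13, calcium is released from stores, and the cation channel Trpm5 opens. The transcription factor Pou2f3 is needed for the cells to form. They release the cytokine IL-25 and lipid mediators made with the help of Ptgs1 and Alox5ap. The arrays measured a sorted population as a whole, not separated tuft cells, so fewer cells of a type and less RNA per cell cannot be told apart.

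Values are given on the log2 scale as deposited, and folds are antilogs of differences on it. An array's background bound was set 3 SD above the mode of its probes, with the SD taken from the values under the mode, and came to 6.80 on each array. Probes exceeding it on 3 or more arrays were tested, which left 19537 probes covering 11779 named genes. Of the 9 genes with a probe, 8 were tested. Pou2f3 and 4 of the 5 Dclk1 probes did not pass this filter.

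Per the labels, wild-type replicates 1 and 2 and knockout replicate 1 lay on beadchip 1 and the other 3 arrays on beadchip 2. Wild-type replicates 1 and 3 and knockout replicate 2 were female, and the date label was earlier for wild-type replicates 1 and 2 than for the rest. The targeted gene itself read 13.53 ± 0.13 (SD, n = 3) log2 units in wild type and 10.22 ± 0.19 (SD, n = 3) in the knockout on its brighter probe (limma adjusted p = 4.69e-08). Its other probe read 10.57 ± 0.43 and 8.25 ± 0.12 (SD, n = 3 each). Both probes thus fell but stayed above background on all 3 knockout arrays. Wild-type means of a list of thymic epithelial markers were read beside the mTEC label. The list was not restricted to the medulla, and Psmb11 and Ly75 in it are known from cortical epithelial cells. Cd74 read 14.20, H2-Ab1 14.26, Cldn4 13.20 and Krt8 13.46. The other listed markers above background were Krt14 (13.64), Cd40 (12.25), Krt5 (11.09), Cd86 (10.76), Tnfrsf11a (10.35), Cd80 (9.42), Psmb11 (7.14) and Ly75 (7.09). Foxn1 was not above background on any array and Epcam had no named probe. The markers called in the knockout are given below. These values do not measure the purity of the sort.

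Promoter sequences, 250 bases before to 50 after an annotated start, are held in the RefSeq table of build GRCm38.p6 for 6 of the 10 genes, with 8 entries. Those of Avil, Trpm5 and Dclk1 are shown because these genes were lower in the knockout without overlap of the groups, as described next. Capitals mark each match on either strand to the octamer ATGCAAAT bound by POU-domain factors, to the same octamer without its last base (ATGCAAA, contained in the octamer), to the TATA box TATAAA, or to the CCAAT box CCAAT.
Avil, chr10:127000459-127000758 (plus strand): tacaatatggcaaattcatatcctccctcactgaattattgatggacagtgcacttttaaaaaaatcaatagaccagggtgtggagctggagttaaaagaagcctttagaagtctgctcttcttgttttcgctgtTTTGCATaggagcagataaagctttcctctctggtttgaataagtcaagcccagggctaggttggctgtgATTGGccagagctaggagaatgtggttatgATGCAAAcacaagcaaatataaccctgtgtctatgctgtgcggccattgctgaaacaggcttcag
Trpm5, chr7:143094593-143094892 (minus strand): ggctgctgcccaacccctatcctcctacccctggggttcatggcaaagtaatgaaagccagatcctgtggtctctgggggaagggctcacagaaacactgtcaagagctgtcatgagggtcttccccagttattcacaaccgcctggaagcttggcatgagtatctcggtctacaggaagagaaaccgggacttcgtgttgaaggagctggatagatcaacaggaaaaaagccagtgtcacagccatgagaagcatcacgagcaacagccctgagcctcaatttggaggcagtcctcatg
Dclk1 first start, chr3:55242114-55242413 (plus strand): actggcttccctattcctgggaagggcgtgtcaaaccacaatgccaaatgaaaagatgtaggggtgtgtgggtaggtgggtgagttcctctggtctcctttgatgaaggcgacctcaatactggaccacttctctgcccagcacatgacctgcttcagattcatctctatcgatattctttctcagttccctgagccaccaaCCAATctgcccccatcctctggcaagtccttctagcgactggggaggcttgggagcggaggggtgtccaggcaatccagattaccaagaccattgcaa
Dclk1 second start, chr3:55461478-55461777 (plus strand): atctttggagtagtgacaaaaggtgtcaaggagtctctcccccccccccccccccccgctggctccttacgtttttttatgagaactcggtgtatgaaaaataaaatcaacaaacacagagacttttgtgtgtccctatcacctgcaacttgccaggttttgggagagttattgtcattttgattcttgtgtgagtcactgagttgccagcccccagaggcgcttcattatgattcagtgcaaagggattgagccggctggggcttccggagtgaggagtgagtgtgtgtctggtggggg

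None of the 8 promoters of these genes holds the whole octamer, which 1.74% of the 32851 promoters in the table hold. The Avil promoter holds the shortened octamer on both strands, with the match beginning at positions −115 and −15 relative to the start. Of all promoters 4.63% hold it at least once. No member promoter holds TATAAA (13.6% of all promoters), and 3 of the 8, of Avil, Dclk1 and Gnat3, hold CCAAT (37.4%). The annotation of Dclk1 has separate starts, and the second shown holds none of these motifs. A match is a description of the sequence only, and the arrays do not tell which start was used.

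In the knockout 4 of the 8 tested tuft cell genes fell and none rose: Lrmp, Avil, Trpm5 and Dclk1, by 0.66 to 0.86 log2 units or 1.59-fold to 1.82-fold. The other 4, Alox5ap, Gnat3, Gng13 and Il25, did not pass. Calls are by limma with Benjamini-Hochberg adjustment over all 19537 tested probes, at a threshold of 0.05. Among all 11779 tested named genes 23.2% were called lower and 18.3% higher, and among all tested probes 17.7% and 20.7%. The median change of the 8 genes was −0.57 log2 units, beside 0.02 over all tested named genes. With each array scaled to housekeeping genes these medians were −0.39 and 0.21, and the same 4 genes fell. The split of calls over all probes, 3462 lower and 4042 higher, moved to 4139 and 2347 with cyclic loess between arrays and to 2154 and 5797 with housekeeping scaling. The plot of values by array shows each of these probes.

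**Figure D1:**
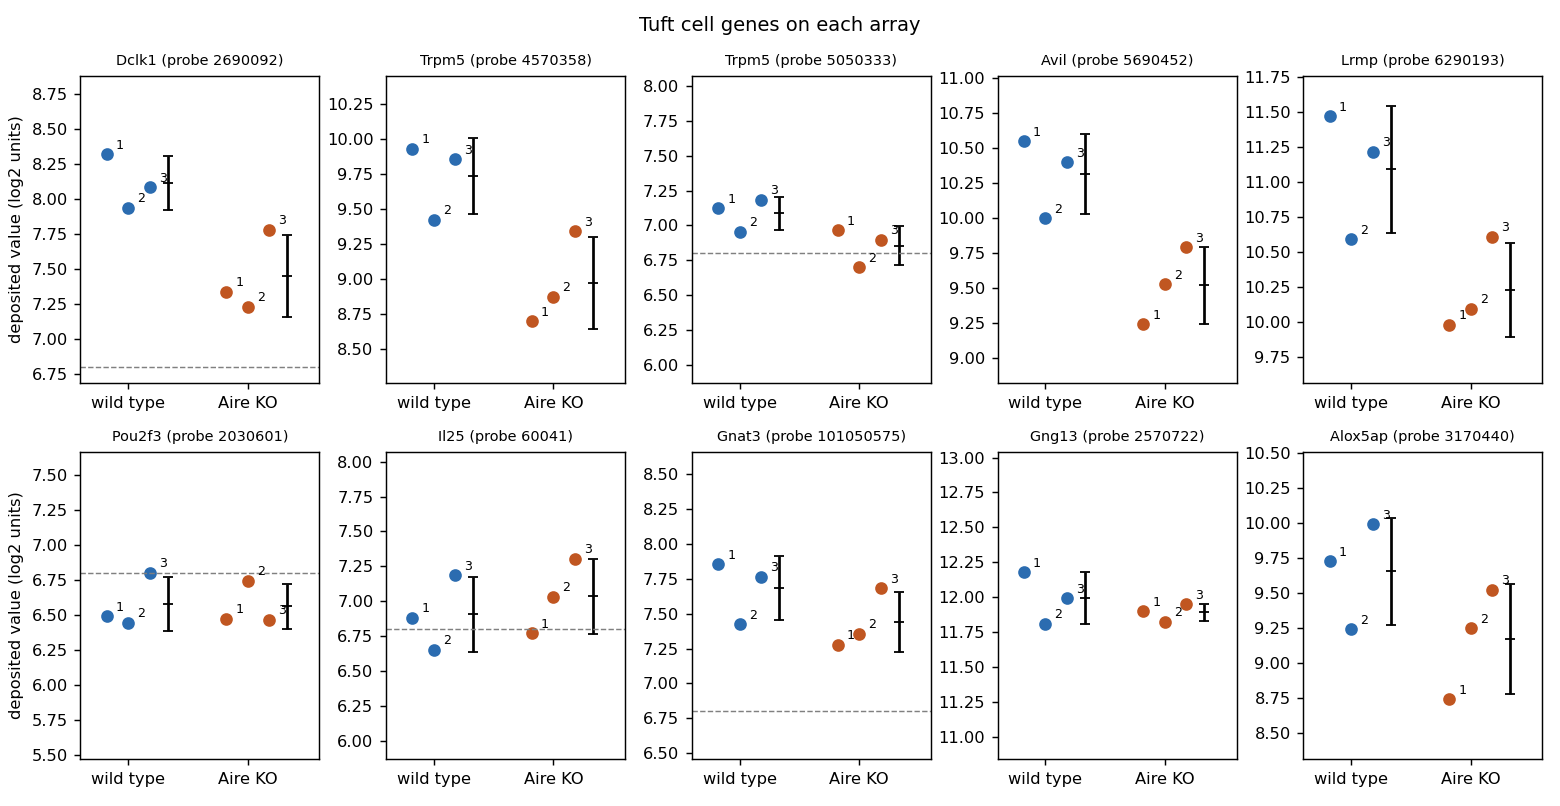
Deposited log2 values of the 9 tested probes of tuft cell genes and of Pou2f3, one panel per probe and one point per array, numbered by replicate, with wild type in blue and Aire knockout (KO) in orange. Black marks are group means with SD (n = 3), the dashed line is the background bound of 6.80 where it is in range, and each panel has its own value axis; the groups are apart for Dclk1, Avil and the brighter Trpm5 probe.

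Trpm5, the channel that depolarises tuft and taste cells at the end of the cascade, was read by a pair of probes. In wild-type replicates 1, 2 and 3 the brighter probe (4570358) gave 9.93, 9.42 and 9.86 log2 units, against 8.70, 8.87 and 9.34 in knockout replicates 1, 2 and 3; values below follow the same order. All knockout arrays lay below all wild-type arrays, with knockout replicate 3 close to wild-type replicate 2. The means were 9.74 ± 0.27 and 8.97 ± 0.33 (SD, n = 3 each), a log2 change of −0.77 (SE 0.18, adjusted p = 0.00895), or 1.70-fold lower. The other probe (5050333) lay close to background, at 7.12, 6.96 and 7.18 in wild type and 6.97, 6.70 and 6.90 in the knockout. Its groups overlapped and it did not pass (−0.23, SE 0.11, adjusted p = 0.127). It passed with cyclic loess between arrays (−0.35, adjusted p = 0.0382, while the alternatives spanned 0.0382 to 0.92).

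Gnat3, the G protein alpha subunit gustducin, read 7.86, 7.42 and 7.77 in wild type and 7.28, 7.36 and 7.68 in the knockout. The groups overlapped, since knockout replicate 3 lay above wild-type replicate 2, and the change of −0.24 (SE 0.15, adjusted p = 0.212) did not pass. Gng13, the gamma subunit that works with gustducin, read 12.18, 11.81 and 11.99 in wild type and 11.90, 11.83 and 11.95 in the knockout. Its 3 knockout arrays lay inside the range of the wild-type arrays. The change was −0.10 (SE 0.11, adjusted p = 0.493), and it was −0.011 without wild-type replicate 1 and −0.20 without wild-type replicate 2. A p that misses the threshold does not show that the level was the same in both genotypes.

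Avil encodes advillin, an actin-binding protein of the tuft cell's apical bundle. It read 10.55, 9.998 and 10.40 log2 units in wild type and 9.24, 9.53 and 9.79 in the knockout. The groups did not overlap, with wild-type replicate 2 the lowest of its group and knockout replicate 3 the highest of its own. The log2 change was −0.80 (SE 0.17, adjusted p = 0.00528), or 1.74-fold lower, and 8.16% of the tested probes had a more negative change.

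Lrmp, a membrane protein of the endoplasmic reticulum also known from lymphocytes, read 11.47, 10.59 and 11.22 in wild type and 9.98, 10.09 and 10.61 in the knockout. Here the groups overlapped by 1 array each, as knockout replicate 3 stood just above wild-type replicate 2. The change was the largest of the 8 genes, at −0.86 (SE 0.23, adjusted p = 0.0146), or 1.82-fold lower. When knockout replicate 1 was left out Lrmp no longer passed (−0.74, adjusted p = 0.0613), nor when knockout replicate 2 was (−0.80, adjusted p = 0.0607). The alternatives spanned adjusted p of 0.00314 to 0.436.

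Dclk1, a microtubule-associated kinase widely used as a tuft cell marker, was above background on 1 of its 5 probes. That probe (2690092) read 8.32, 7.94 and 8.08 in wild type and 7.34, 7.23 and 7.78 in the knockout. The groups were apart, again with knockout replicate 3 the nearest to wild type, and the change was −0.66 (SE 0.16, adjusted p = 0.00864), or 1.59-fold lower. The other 4 probes lay between 5.97 and 6.46 on all arrays, below the bound, and carry no information on the difference. They include a probe (540095) annotated to the same RefSeq transcript as the bright one, with a wild-type mean of 6.09, so probes for 1 annotated transcript disagreed on whether Dclk1 was detected. Of the genes whose groups did not overlap in the lower direction there were 3 among the 8 (Dclk1, Trpm5 and Avil), and 27.2% of all tested named genes had such groups (27.1% in the higher direction, with none of the 8).

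Pou2f3 and Il25 stand at either end of the tuft cell programme, as its transcription factor and its secreted cytokine, and both lay near background. Pou2f3 read 6.49, 6.44 and 6.80 in wild type and 6.47, 6.74 and 6.47 in the knockout. It was above the bound only on wild-type replicate 3, so it was not tested and its level was not measured in the other arrays. Il25 read 6.88, 6.65 and 7.19 in wild type and 6.77, 7.03 and 7.31 in the knockout, with 2 of 3 arrays above background in each group. The groups overlapped and the difference of 0.13 (SE 0.17, adjusted p = 0.558) did not pass. Its sign depended on the arrays used, as given in the closing section.

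Alox5ap, the protein that presents arachidonic acid to 5-lipoxygenase at the start of leukotriene synthesis, read 9.73, 9.24 and 9.99 in wild type and 8.74, 9.25 and 9.53 in the knockout. The groups overlapped, because wild-type replicate 2 lay below knockout replicates 2 and 3. The change of −0.48 (SE 0.22, adjusted p = 0.113) did not pass. It was negative under all 22 alternatives run and passed under 5 of them: with beadchip as a block (adjusted p = 0.0114), with array weights (0.0496), without wild-type replicate 2 (0.0409), without knockout replicate 3 (0.0462) and in 1 further fit given in the closing section. Leaving out knockout replicate 1 gave a smaller change of −0.27 (adjusted p = 0.366), and leaving out wild-type replicate 3 gave −0.32 (0.313). The alternatives spanned 0.0114 to 0.813.

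Within each genotype the 8 genes were high and low on the same arrays. Wild-type replicate 2 was the lowest wild-type array for 8 of 8 genes, where it was the lowest for 27.3% of all tested named genes. Knockout replicate 3 was the highest knockout array for 8 of 8, beside 40.0% of all tested named genes. Both conditions held together for 10.7% of all tested named genes and for 9 of the 41 further tuft cell genes described below. By role these were 4 of 11 in the taste-type cascade, 2 of 4 in eicosanoid synthesis and 1 of 3 kinases, adaptors and surface proteins. The rest were 1 of 11 transcription factors, 1 of 8 cytoskeletal and other products and 0 of 4 receptors.

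**Figure D2:**
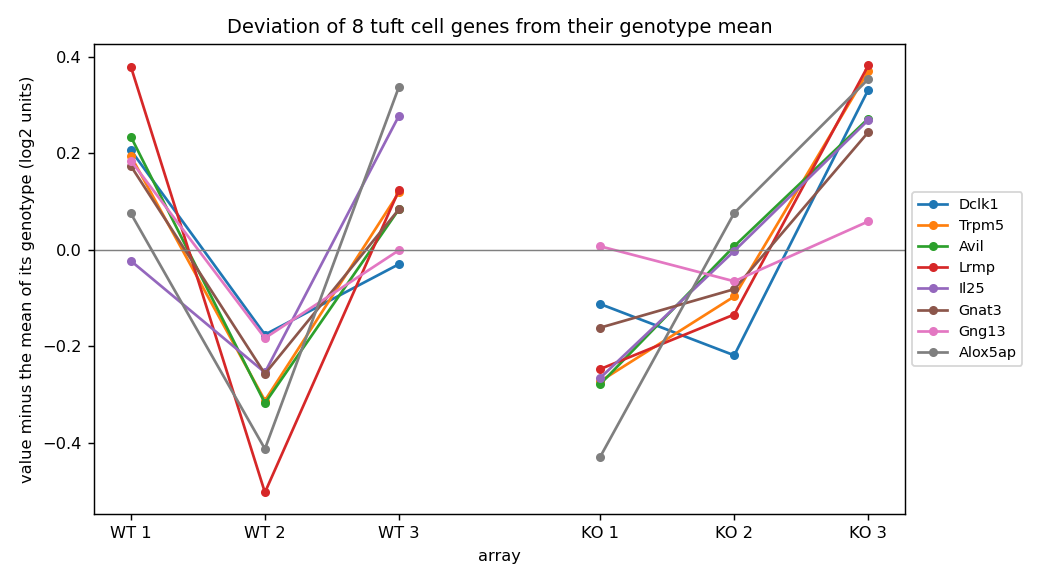
Deviation of each of the 8 tested tuft cell genes from the mean of its genotype (log2 units), by array, with one line per gene and lines broken between wild type (WT) and Aire knockout (KO). All 8 lines are lowest at WT 2 among the wild-type arrays and highest at KO 3 among the knockout arrays.

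The spread behind this order was widest for Lrmp in wild type, 0.88 log2 units from lowest to highest, and for Alox5ap in the knockout, 0.78. For Gng13 the ranges were 0.37 and 0.12. The deviations from the genotype means correlated positively in all 28 pairs of the 8 genes, with Pearson r from 0.38 (Il25 with Gng13) to 0.99 (Lrmp with Gnat3) and a median of 0.86 over the 6 arrays. These arrays share their cells and their normalization across genes, so the correlations are a description. Values centred within each genotype also leave few degrees of freedom, so high correlations arise easily. Pairs of other tested genes were not set beside them. Wild-type replicate 2 and knockout replicates 1 and 3 were male. Knockout replicate 1 was the lowest knockout array for 6 of the 8 genes, and the part of sex in this order was not tested.

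The order of the same arrays was read for markers of other cells. Knockout replicate 3 was also the highest knockout array for 5 of 6 tested thymocyte and T cell markers and for 5 of 6 fibroblast and endothelial markers, whereas wild-type replicate 2 was the lowest wild-type array for 1 of 6 in each list. Among thymic epithelial markers the counts were 4 of 12 and 2 of 12, among myeloid markers 2 of 6 and 2 of 6, among mast cell and platelet markers 0 of 5 and 2 of 5, and among B cell markers 1 of 3 and 0 of 3. Their part in the order of the tuft cell genes was not tested.

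Each beadchip held both genotypes. On beadchip 1 the changes were −0.79 for Dclk1, −0.98 for Trpm5, −1.03 for Avil and −1.05 for Lrmp. On beadchip 2 they were −0.58, −0.75, −0.74 and −0.86 in the same order. The direction was the same on each beadchip, and none of the 4 passed on a beadchip alone. Beadchip 1 held knockout replicate 1 as its single knockout array and beadchip 2 held wild-type replicate 3 as its single wild-type array. With beadchip as a block all 4 passed and Alox5ap fell too (−0.68).

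**Figure D3:**
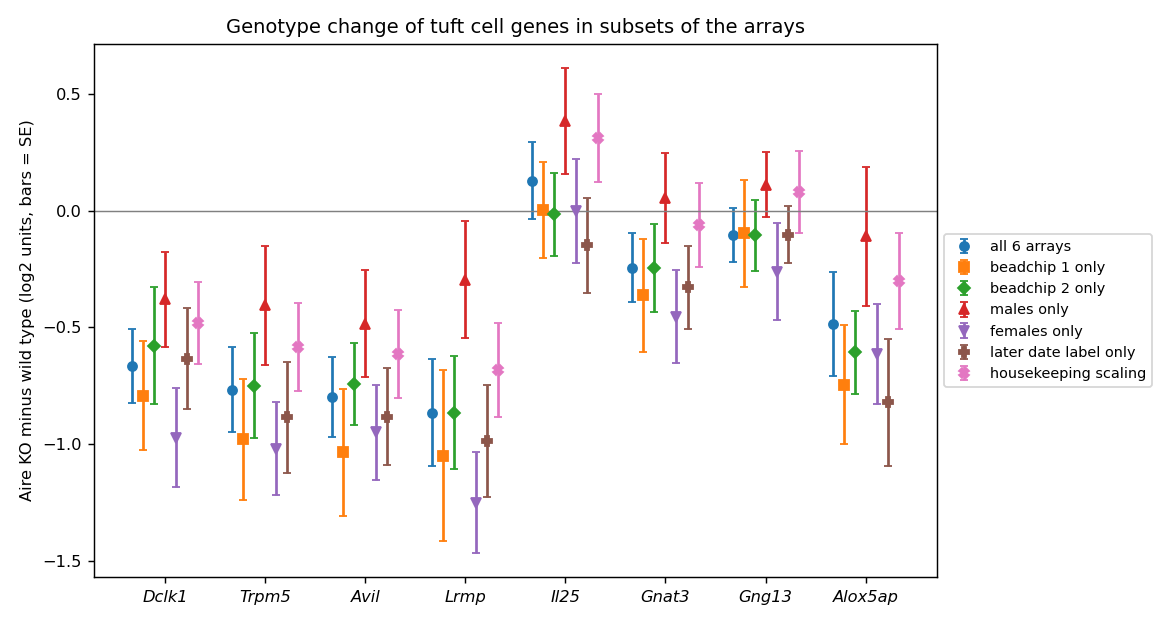
Knockout minus wild type (log2 units, bars are SE) of the 8 tested tuft cell genes, from all 6 arrays, from single beadchips, single sexes and the 4 arrays with the later date label, and after scaling to housekeeping genes. Dclk1, Trpm5, Avil and Lrmp lie below 0 in every subset, with the smallest changes in males.

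In males the changes of the same 4 genes were −0.38, −0.41, −0.48 and −0.29, and none passed. In females they were −0.97, −1.02, −0.95 and −1.25, and all passed. Each of these fits has 1 array in an arm, which is assumed to vary like the other group. The male comparison sets wild-type replicate 2, the lowest wild-type array, against knockout replicates 1 and 3, a pair that holds the highest knockout array. The female comparison sets wild-type replicates 1 and 3 against knockout replicate 2 and so leaves out both of those arrays. The difference between the sexes was tested as an interaction with 2 residual degrees of freedom. It was 0.96 for Lrmp (SE 0.39, unadjusted p = 0.0439, limma adjusted p = 1) and 0.37 to 0.61 for the other tested probes, none of them below an unadjusted p of 0.05. No probe on the array passed this interaction (0 of 19537, with 425 at an unadjusted p under 0.05).

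Further genes known from tuft cells were taken by role from a list of 70, of which 64 had a named probe and 41 were tested. Of the 41, 9 fell and 6 rose, which is 22.0% and 14.6% of them, beside 23.2% and 18.3% of all tested named genes. Counts of the shorter role and marker lists below are to be read beside these same shares of all genes. Some lie near them, such as 16.7% lower and 16.7% higher among thymic epithelial markers. Others lie further off, such as 9.09% lower and 36.4% higher among transcription factors. Those 2 shares count Ascl2 and Hmx3, which passed the filter only through the group where they were high. They therefore describe the list and do not test it. In lists so short 1 call moves a share much. The median change was −0.06, beside 0.02 over all tested named genes. With scaling to housekeeping genes 1 fell and 9 rose and the median turned to 0.12, while that scaling moved the median of all tested named genes to 0.21.

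Of 11 tested genes of the taste-type cascade 4 fell and 1 rose. Itpr3, the receptor that releases calcium from the endoplasmic reticulum upstream of Trpm5, read 9.94, 9.79 and 9.50 in wild type and 9.34, 9.21 and 9.32 in the knockout. Its groups were apart (−0.45, SE 0.13, adjusted p = 0.0185). Leaving out wild-type replicate 2 (adjusted p = 0.0566) or knockout replicate 2 (0.0737) ended this call, and alternatives spanned 0.00526 to 0.357. The others that fell were the calcium-dependent kinase subunit Camk2b (−0.59, SE 0.12), the inositol phosphatase Inpp5j (−0.54, SE 0.12) and the calcium pump Atp2a3 (−0.46, SE 0.11). A second Atp2a3 probe (2190451) did not pass (0.00, adjusted p = 0.989), and none of these 4 calls held with housekeeping scaling. Inpp5d, the phosphatase SHIP1 of blood cells and tuft cells, rose by 1.08 (SE 0.10, adjusted p = 3.15e-05), with means of 8.67 ± 0.14 in wild type and 9.75 ± 0.02 in the knockout (SD, n = 3). The G protein subunit Gnb3 (−0.20, adjusted p = 0.337) and the phospholipase Plcb2 (0.12, adjusted p = 0.465), the direct partners of the cascade between receptor and channel, did not pass.

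Of the 12 receptors with a named probe only 4 were tested. Il17rb, a subunit of the IL-25 receptor, fell with groups apart. It read 8.78, 8.69 and 8.82 in wild type and 8.09, 8.35 and 8.35 in the knockout (−0.50, SE 0.11, adjusted p = 0.00528). With housekeeping scaling it did not pass (−0.32, adjusted p = 0.14; alternatives spanned 0.00169 to 0.196). The taste receptor gene Tas1r1, the succinate receptor Sucnr1 and the IL-13 receptor subunit Il13ra1 did not pass. The bitter receptor genes with a probe, Tas2r105, Tas2r108, Tas2r117, Tas2r131 and Tas2r138, were not above background on any array.

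Among 11 tested transcription factors of tuft cells 4 rose and 1 fell. Hmx3, a homeobox factor, was not above background on any wild-type array (6.02, 6.31 and 6.64) and read 6.96, 7.16 and 7.45 in the knockout, at least 1.31-fold higher (adjusted p = 0.0033). Such lower bounds, here and below, use the lowest signal above background for arrays on which the gene did not reach it. Genes given such a bound passed the filter only through the group where they were high. Their calls and p-values therefore describe a difference and do not test it. Tead1 (0.52, SE 0.12, adjusted p = 0.00798), Hivep3 (0.44, SE 0.12, adjusted p = 0.0194) and Nfatc1 (0.40, SE 0.10, adjusted p = 0.0119) rose as well, and so did a second Tead1 probe (0.39) and 2 of the other 4 tested Nfatc1 probes (0.41 and 0.67). For Hivep3 a further probe rose (0.36) and another did not pass (0.14). The Hivep3 call was lost without wild-type replicate 2 (adjusted p = 0.0623), wild-type replicate 3 (0.0633) or knockout replicate 2 (0.084), and alternatives spanned 0.00599 to 0.434. Ascl2 fell from 6.86 ± 0.04 to below background on all knockout arrays, at least 1.04-fold lower (adjusted p = 0.0038), and did not pass with housekeeping scaling (adjusted p = 0.136; alternatives spanned 0.000813 to 0.233). Gfi1b, Spib and Sox9, which are expressed in tuft cells of the gut, did not pass (−0.10, 0.18 and 0.04).

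Of 4 tested genes of eicosanoid synthesis 1 rose and none fell. Ptges, which makes prostaglandin E2, read 8.85, 9.16 and 9.03 in wild type and 9.82, 9.81 and 9.65 in the knockout (0.75, SE 0.11, adjusted p = 6.28e-04). The groups were well apart. The leukotriene enzymes Alox5 (0.13, adjusted p = 0.564) and Ltc4s (−0.13, adjusted p = 0.604), which act after Alox5ap, did not pass, and Hpgds, which makes prostaglandin D2, was not tested.

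Among kinases, adaptors and surface proteins 3 of 11 genes with a probe were tested and 1 fell. Sh2d6, an adaptor gene, fell on its brightest probe, from 8.50, 8.29 and 8.26 to 7.72, 7.82 and 7.97 (−0.51, SE 0.11, adjusted p = 0.00545), while its other probes changed by −0.34 and −0.13 and did not pass. With housekeeping scaling its brightest probe did not pass (−0.33, adjusted p = 0.117; alternatives spanned 0.00134 to 0.19). Ptprc (CD45), which is expressed in blood cells and in some tuft cells, was below background on all arrays with all 4 of its probes, and so was Siglecf.

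Of 8 tested cytoskeletal and other products 2 fell and none rose on the brightest probe. A second Basp1 probe (5700044) rose with groups apart (0.41, SE 0.10, limma adjusted p = 0.00836). The brighter Basp1 probe did not pass (0.13). Plk2, a polo-like kinase gene, read 9.38, 9.17 and 9.32 in wild type and 8.34, 8.37 and 8.44 in the knockout (−0.91, SE 0.10, adjusted p = 7.86e-05). Its call held under all 22 alternatives run. Vil1, the villin of microvilli, changed from 9.58 ± 0.14 to 9.13 ± 0.09 (−0.45, SE 0.11, adjusted p = 0.00908) but did not pass with housekeeping scaling (−0.27, adjusted p = 0.21; alternatives spanned 0.00333 to 0.281). Chat and Tslp, for acetylcholine synthesis and a further tuft cell cytokine, were not tested.

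**Figure D4:**
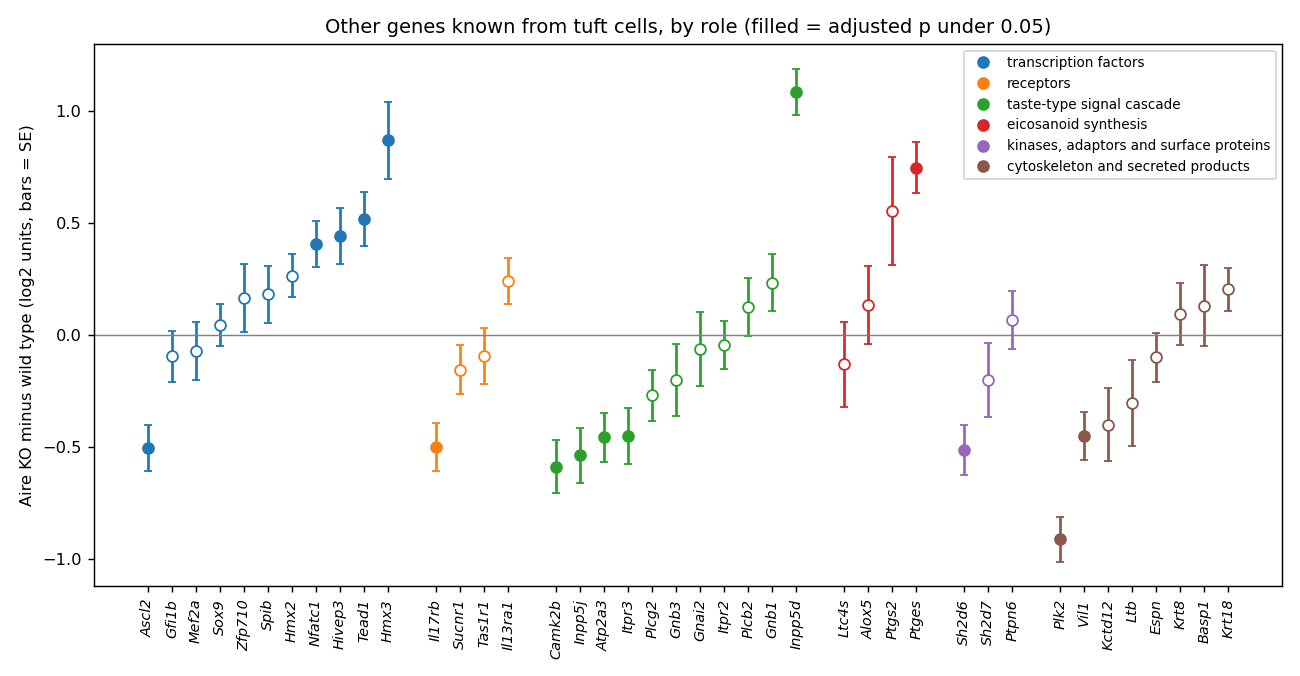
Knockout minus wild type (log2 units, bars are SE) of the 41 further tested genes known from tuft cells, grouped by role, filled where the adjusted p was under 0.05. In the cascade group 4 filled points lie below 0 and Inpp5d above. Among transcription factors 4 filled points lie above 0 and Ascl2 below. Of these, Hmx3 and Ascl2 passed the filter only through the group where they were high.

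Several of these genes are also expressed in other cells that a sort could hold, so markers of those cells were read on the same arrays. By way of Aire, mTECs themselves express many genes of other tissues, so a marker's level need not reflect its cells. Whether these markers read other cells or the mTECs was not tested. Of 5 tested mast cell and platelet markers 4 fell and 1 rose, and the list's mean value lay between 8.70 and 8.83 on wild-type arrays and between 7.30 and 7.43 on knockout arrays. Mcpt4, a mast cell protease, was at least 4.87-fold lower (adjusted p = 5.37e-08), the platelet chemokine Ppbp at least 2.22-fold lower and the mast cell protease Cma1 changed by −1.62 (SE 0.12) with 2 of 3 knockout arrays above background, whereas Kit rose (0.61, SE 0.12). The platelet gene Gp9 was the other that fell, at least 1.63-fold lower. Mcpt4, Ppbp and Gp9 were above background on all wild-type arrays and on no knockout array. They passed the filter only through wild type, so their calls do not test a difference. The knockout means of the list include their values below background. The mast cell genes Cpa3 and Ms4a2 were not tested, being at background.

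Of 6 tested thymocyte and T cell markers 2 fell, Cd3g (−1.01, SE 0.19, adjusted p = 0.00233) and Cd3d (−0.61, SE 0.17, adjusted p = 0.016), and none rose. The list's mean value was 8.55 to 8.69 in wild type and 7.99 to 8.56 in the knockout, and its brightest gene, Cd8b1, did not pass (−0.31). Of 6 tested myeloid markers 2 fell, Cd14 (−2.01, SE 0.12) and Adgre1 (at least 1.22-fold lower), and 2 rose, Fcer1g (0.95, SE 0.11) and Cybb (0.32). The mean value was 9.10 to 9.22 in wild type and 8.96 to 9.04 in the knockout, and the brightest gene, Lyz2, did not pass (0.20). Itgam, Itgax and Tyrobp were not above background on any array.

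Among 3 tested B cell markers Cd79a was at least 1.27-fold lower and Cd79b rose (0.34), while Blnk, the brightest, did not pass (0.19) although a second Blnk probe rose (0.64), and Ms4a1 and Pax5 were not tested. The mean value of these markers was 9.99 to 10.20 in wild type and 9.94 to 9.99 in the knockout. Of 6 tested fibroblast and endothelial markers Col1a1 (−1.31, SE 0.32) and Cdh5 (−0.45, SE 0.14) fell, each above background on only 1 of the 3 knockout arrays, and Kdr rose (0.35). The brightest gene Pecam1 did not pass (0.48, adjusted p = 0.0689) although a second Pecam1 probe rose (0.57), and the mean value of these 6 markers was 7.44 to 7.83 in wild type and 7.44 to 7.73 in the knockout. Of 12 tested thymic epithelial markers Krt5 (−1.83, SE 0.28) and Krt14 (−0.70, SE 0.13) fell, and Tnfrsf11a (0.51, SE 0.09) and Ly75 (0.43, SE 0.11) rose. The mean value of these 12 was 11.31 to 11.47 in wild type and 11.27 to 11.34 in the knockout. The brighter Cd86 probe did not pass (0.13). A second Cd86 probe (3390471) was at least 1.26-fold higher, but it was above background only on knockout arrays and passed the filter only through them. The calls of Ly75, Cybb, Cd79b, Cd3d, Cdh5 and Kdr ended without knockout replicate 2 (adjusted p of 0.0594, 0.143, 0.0603, 0.0651, 0.0835 and 0.0927). Without knockout replicate 1 those of Cd79b, Cd3d, Cdh5 and Kdr ended (0.0612, 0.0641, 0.127 and 0.111). Cybb also did not pass without wild-type replicate 2, wild-type replicate 3 or knockout replicate 3 (0.101, 0.0774 and 0.0865), Cdh5 without wild-type replicate 1 or 2 (0.0721 and 0.103) and Kdr without wild-type replicate 3 (0.0892). What part any of these cells had in the changes of Lrmp, Alox5ap or the other tuft cell genes was not tested.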

How the data were processed

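Total RNA of MHC class II high mTECs was hybridised to 6 single-colour Illumina bead arrays, 3 per genotype. The authors deposited normalized log2 values, 1 per probe and array. Per the submitters' processing notes BeadStudio and lumi were used, and the sources used here do not state how background, transform and normalization were handled. The columns had medians of 6.55, so arrays had been normalized to each other, and a remaining background compresses the folds of dim genes. The 24 columns of the other deposited tables match no sample label and were not used.

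Of 46619 probes, 32782 have 1 gene symbol, 55 have several and 13782 have none. The annotation symbols were checked by gene ID against RefSeq (GRCm38), which matched 32710 probes. Each gene's brightest tested probe stood for it. The genotype comparison used lmFit and eBayes of limma 3.58.1 (R 4.3.3), two-sided and without covariates, adjusted over all tested probes, and tested on simulated data. The number of arrays limits the precision. No array was dropped in the main fit. The members, the gene lists and the tests were chosen with earlier results of these data known. The text names all member probes, up to 4 called genes per tuft cell list with the largest changes, and up to 3 called genes and the brightest gene per marker list. Itpr3, Nfatc1, Ly75, Cybb and Gp9 lie outside this rule, and so does each second or further probe given for a gene of the further tuft cell or marker lists. They were added after their values were seen. The same holds for the genes given as not passing or not tested, apart from the brightest gene of each marker list. It also holds for most markers of the mTEC label check. The alternatives were other filters and bounds, normexp (offset 16) on antilog values, cyclic loess, scaling to 17 tested housekeeping genes, beadchip, sex, date label, replicate number, variance models, array weights, averaged probes and leaving out each array.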

Additional observations from a re-analysis of the deposited data

Results flagged for a closer look

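Gng13 (probe 2570722) changed with opposite sign in males and females, as did Gnat3 (0.055 and −0.45) and Il25 (0.39 and −0.00054). For every tested member probe the male change lay above the female one. Wild-type replicate 2, the only male wild-type array, was the lowest wild-type array for all 8 tested genes. For Gng13 in females the knockout array lay below both wild-type arrays, by 0.26 on average (change −0.26). In males both knockout arrays lay above the wild-type array (change 0.11). The test of the difference between the sexes gave 0.37 (SE 0.23, limma adjusted p = 1). The groups hold 3 arrays each, which is too few to ask whether a single array stands apart from its group.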

How the results depend on the processing

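The count of tuft cell genes that fell was 3 to 5 and of those that rose 0 in the fits that left out 1 array each, and 4 or 5 fell under the alternatives that used all 6 arrays. In fits of 3 arrays, each with 1 array in an arm, it was 0 on beadchip 1, 0 on beadchip 2, 0 in males and 4 in females. Of the further tuft cell genes 9 fell and 6 rose. The number that fell was 1 with housekeeping scaling, 1 on each of beadchip 1, beadchip 2 and females only, 4 in males and 4 with the later date label only, and the number that rose was 1 on beadchip 1, 2 on beadchip 2 and 2 in females. Leaving out 1 array gave 8 to 11 that fell and 5 to 7 that rose. Over all tested probes 3462 fell and 4042 rose. The probes that fell numbered 1895 with only probes above background on all 6 arrays, where fewer probes were tested, 2154 with housekeeping scaling, 1466 on beadchip 1, 1711 on beadchip 2 and 1721 in females. Those that rose numbered 2347 with cyclic loess, 514 on beadchip 1, 907 on beadchip 2, 1968 in males, 749 in females and 2298 with the later date label. Leaving out 1 array gave 2772 to 3478 that fell and 2467 to 4125 that rose, with 2609 without knockout replicate 1 and 2467 without knockout replicate 2. Fewer arrays entered each of these subsets, and for the 2 scalings the cause was not tested. The share of calls that were lower was 46.1% in the main values, 63.8% with cyclic loess and 27.1% with housekeeping scaling. The sign of Il25 turned with beadchip as a block (−0.0065), on beadchip 2 (−0.015), in females (−0.00054), with the later date label (−0.15) and without knockout replicate 3 (leaving out 1 array gave −0.0049 to 0.27), that of Gng13 with housekeeping scaling (0.080) and in males (0.11), and that of Gnat3 in males (0.055); none of the 3 passed in any alternative. With the later date label, where wild type is 1 array, Dclk1 did not pass (adjusted p = 0.0756; alternatives spanned 0.00157 to 0.226). The replicate numbers were not taken to pair the arrays in the main fit. Deviations of same-numbered arrays correlated at 0.20, −0.06 and −0.02, and those of differently numbered arrays at −0.27 to 0.26. These values do not decide whether arrays were paired. With replicate number as a block 5 tuft cell genes fell, Alox5ap among them (adjusted p = 0.0489), 10 further tuft cell genes fell and 7 rose, and Dclk1, Trpm5, Avil and Lrmp passed as before. No interaction of sex and genotype passed for a tuft cell gene under any scaling or filter run. Signal over background limits what can be said of Pou2f3, Il25 and the second Trpm5 probe.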
